A study of Drosophila melanogaster with 6 samples.

Results

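Glutathione transferases (GSTs) were examined by class in purified germline stem cells and in cultured cells of Drosophila melanogaster. The members are the genes whose platform symbol is Gst followed by a class letter, D, E, O, S, T or Z, and a number. Only probe sets annotated with 1 gene were used, and a gene with several was represented by the probe set with the highest mean signal over the 6 arrays. This gave 34 genes of the 10844 measured, 11 of class D, 14 of class E, 3 of class O, 1 of class S, 3 of class T and 2 of class Z. The RefSeq gene table lists 35 symbols of this form, and GstT1 is the one not measured here.

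RNA was profiled on 1-colour oligonucleotide arrays in 2 groups. GSC samples were germline stem cells highly purified from ovaries mutant for bam, a gene that drives stem cell daughters to differentiate. Kc samples were the tissue culture line of that name, an established embryonic line and thus 1 line only. Each group had 3 arrays. The labels give no bam allele, strain or age of the flies and no culture conditions, and do not say whether replicate arrays stem from separate dissections or cultures, so the p-values speak only for the spread among these samples, which may be technical. There is no ovary with intact bam among the arrays analysed here, and Kc is the only baseline.

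GSTs join the tripeptide glutathione to electrophilic compounds, which makes these less reactive and easier to export. The delta (D) and epsilon (E) classes are insect enzymes that have multiplied by tandem duplication and include the members best known for insecticide metabolism and stress responses. Omega (O), sigma (S), theta (T) and zeta (Z) classes are shared with many other animals. In flies the transcription factor CncC, encoded by cnc, and its inhibitor Keap1 govern many detoxification genes, GstD1 among them.

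Markers set the groups apart. By the calling rule given below, 12.6% of all 10844 genes rose and 8.05% fell. Of 10 germline markers 8 rose, namely vas, nanos, aub, piwi, zpg, orb, tej and krimp. The gene bam itself, mutated in the GSC samples, fell (means of 50 in GSC, against 775 in Kc). The marker bgcn was not called (means of 963 in GSC, against 624 in Kc). Signals summed over all 10 markers, bam and bgcn included, were 37377 to 41952 in GSC, against 1710 to 1936 in Kc. Of 8 hemocyte markers 7 fell, namely Hml, Pxn, srp, Pvr, Ppn, Glt and zfh1, and NimC1 was not called. Sums over all 8 were 447.8 to 658.9 in GSC, against 28125 to 29278 in Kc. Other cells an ovary preparation could hold were looked for with 7 ovarian somatic markers, whose sums were 212.8 to 271.3 in GSC, against 211.6 to 308.7 in Kc, with 5 of the 7 no brighter on any array than controls without a fly target. Of 7 genes listed as fat body markers, the yolk protein genes Yp1, Yp2 and Yp3 rose and the other 4 were not called. Those 4 were Lsp2, Fbp1, Fbp2 and apolpp (log2 folds of -0.03, -0.19, -0.06 and 0.75). The 7 genes summed to 2164 to 2329 in GSC, against 725 to 968.8 in Kc. Which cells gave the yolk protein signals, ovarian somatic cells included, and the part of such cells in the results were not tested. Sums of 5 muscle sheath markers (321.1 to 442.4 in GSC, against 433.5 to 626.4 in Kc) and 6 spermatocyte markers (680.2 to 884.4 in GSC, against 759.4 to 968.2 in Kc) overlapped, although 1 spermatocyte gene, aly, rose (means of 138.3 in GSC, against 38.8 in Kc, log2 fold 1.18, adjusted p = 0.0172). The 3' to 5' signal ratio of actin was 4.58 ± 0.313 on GSC arrays and 1.85 ± 0.0789 on Kc arrays (SD, n = 3 each; two-sided p = 0.1 by an exact permutation test, the lowest that 3 against 3 arrays allow), and the ratios of GAPDH and eIF-4a also did not overlap. This difference in the 3' to 5' ratio accompanies every GST result below, and neither its source nor its part in them was tested.

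Far more GST genes fell than rose in GSC relative to Kc, and those that fell were almost all of classes D and E. A gene was called when its adjusted p was under 0.05 and its fold at least 2, from limma fitted to all 13966 probe sets on log2(signal + 38). Of the 34 genes 15 fell (44.1%), 1 rose and 18 were not called, where 8.05% of all 10844 genes fell and 12.6% rose. Class E had 9 of 14 members lower (64.3%) and none higher, class D 5 of 11 (45.5%) and none higher, and class O 1 of 3. The lone class S gene rose, and no member of class T or Z was called. The classes were not tested against each other, since their members are too few and too closely related to serve as replicates.

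**Figure D1:**
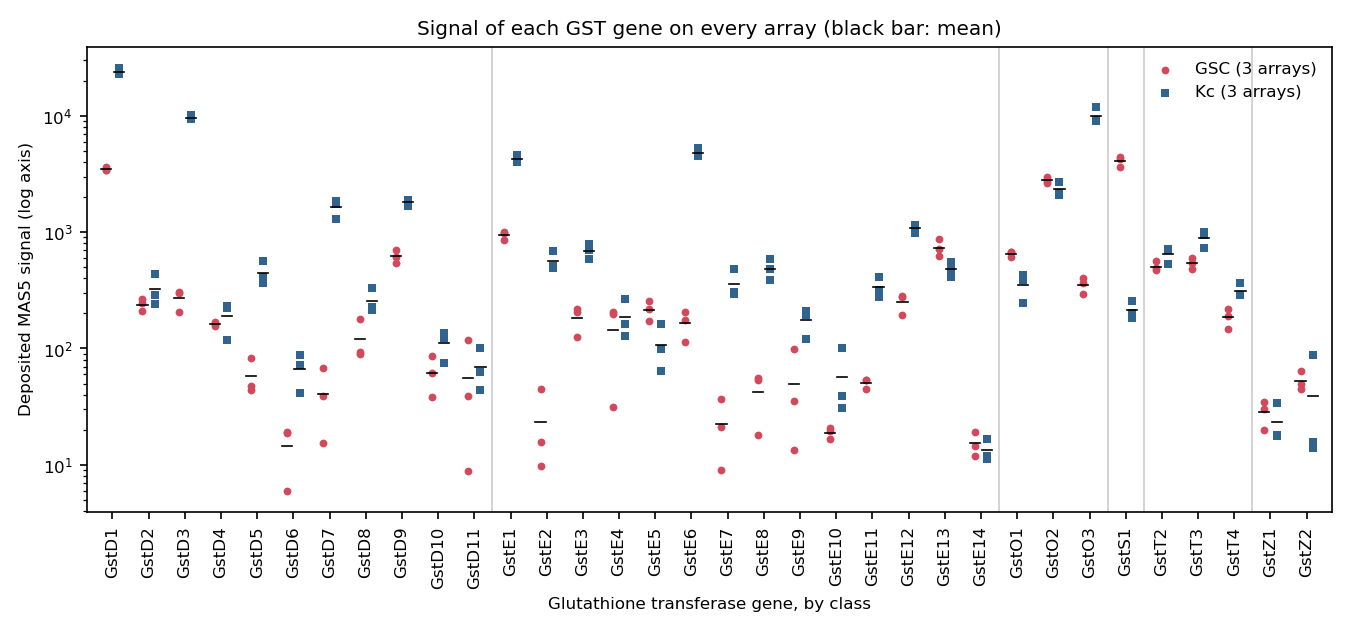
Deposited MAS5 signals of the 34 GST genes (log axis, no unit), with the 3 GSC arrays as circles left of the 3 Kc arrays as squares and black bars for the means, ordered by class D, E, O, S, T and Z. Among the widest gaps are those of GstD3, GstD7, GstE6 and GstO3, with Kc on top, and that of GstS1, with GSC on top.

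The median log2 fold, GSC over Kc, was also lowest in class E. It was -1.85 for class E, -0.98 for class D, -0.66 for class T, 0.24 for class Z and 0.27 for class O, beside -0.80 for all 34 members and 0.04 for all genes. The folds of class D were negative in all 11 members, from -4.99 to -0.14, with GstD2 and GstD4 turning positive under hybridisation control scaling and GstD11 without GSC 2, whereas class E ran from -4.60 to 0.84 with 11 negative and 3 positive folds. Over all 34 members, 20 had every GSC array below every Kc array and 4 every GSC array above every Kc array, where 19.5% and 27.6% of all genes did so. Array means of log2(signal + 38) over class E were 7.04, 7.23 and 7.33 in GSC, against 8.80, 8.84 and 8.74 in Kc. Over class D they were 7.60, 7.61 and 7.67 in GSC, against 9.37, 9.46 and 9.34 in Kc. The 3 arrays of each group lay close together in both classes and apart from those of the other group.

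The deposited table carries no detection call, so dim members were set beside controls that should find nothing. The 8 mouse and yeast control probe sets, which have no fly target, gave signals of 4.9 to 76.6 on GSC arrays and 3.2 to 121 on Kc arrays. GstD6, GstE10, GstE14, GstZ1 and GstZ2 did not exceed these upper values on any array, so their folds compare signals in the range of controls without a target. In GSC alone, 10 members stayed within that range on all 3 arrays, and 5 of them, GstD7, GstE2, GstE7, GstE8 and GstE11, were called lower. The size of those 5 folds depends on the pseudocount.

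**Figure D2:**
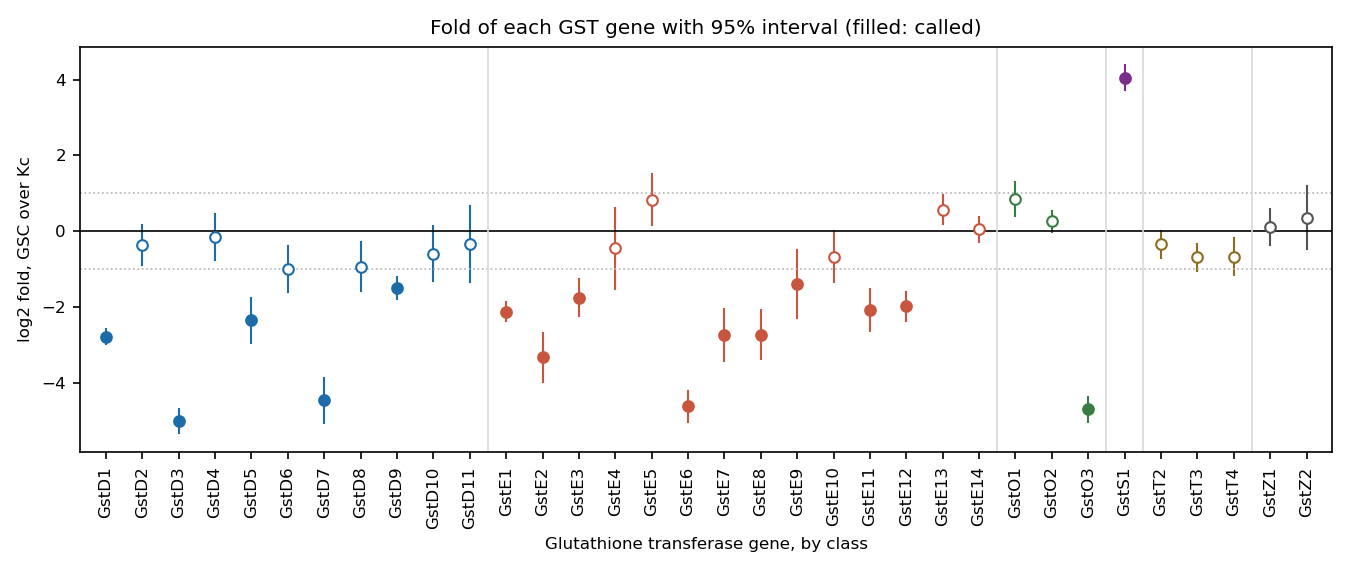
log2 fold, GSC over Kc, on the log2(signal + 38) scale for each of the 34 GST genes with the 95% interval from limma, where filled points are called genes and dotted lines mark a fold of 2. Of the filled points 15 lie below the line at -1, and GstS1 alone, at 4.04, lies above the line at 1.

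Class E held the largest number of genes lower in GSC. GstE6 had signals of 113.7, 205.9 and 176 in GSC, against 4484, 5299 and 4682 in Kc. The groups were far apart, with a mean 29.2 times as high in Kc as in GSC, a log2 fold of -4.60 ± 0.18 (SE) and an adjusted p of 1.28e-07 by limma. GstE2 was dim in GSC, at 15.7, 9.8 and 44.8, and had 487.5, 508.7 and 687.8 in Kc (a log2 fold of -3.31, adjusted p = 1.62e-05). The neighbouring genes GstE7 and GstE8 both had a log2 fold of -2.72, with GstE7 at 36.5, 9 and 21.2 in GSC, against 295.6, 480.9 and 305.2 in Kc, and GstE8 at 18, 55.4 and 54.1 in GSC, against 478.3, 586.7 and 388.5 in Kc. In GSC the signals of GstE2, GstE7 and GstE8 were within the range of the controls without a target and those of GstE6 above it, and in Kc all 4 genes were above it.

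GstE1, GstE12, GstE3, GstE11 and GstE9 also fell. GstE1, an enzyme known to conjugate lipid peroxidation products, had 859.9, 986.4 and 1007 in GSC, against 4566, 4030 and 4129 in Kc, a log2 fold of -2.11 ± 0.111 (SE, adjusted p = 5.77e-07). GstE12 had 275.3, 194.3 and 282.9 in GSC, against 1106, 980.4 and 1162 in Kc (a log2 fold of -1.97), and GstE3 had 206.7, 216.7 and 126.6 in GSC, against 785, 585.4 and 708 in Kc (-1.74). GstE11 was at 53.1, 45.1 and 53.8 in GSC, against 415.2, 318.8 and 278.6 in Kc (-2.07). In none of these 4 genes did a GSC array reach the lowest Kc array. GstE9 was just past the thresholds, with 13.4, 35.3 and 98.6 in GSC, against 193.3, 210.2 and 121 in Kc (a log2 fold of -1.38 ± 0.395, SE, adjusted p = 0.0217). Its GSC arrays spread widely, and its call was lost without GSC 1 (adjusted p = 0.0707), GSC 2 (adjusted p = 0.066), Kc 1 (adjusted p = 0.0626) or Kc 2 (adjusted p = 0.0768).

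The remaining 5 class E genes were not called. GstE13 had 871.4, 711.4 and 618.8 in GSC, against 478.4, 552.8 and 408.8 in Kc, a log2 fold of 0.57 (adjusted p = 0.0272) that was under the fold minimum although every GSC array was above every Kc array. GstE5 had 173.2, 255.8 and 216.5 in GSC, against 161, 64.1 and 98.7 in Kc (a log2 fold of 0.84, adjusted p = 0.0578). Without Kc 1, the array with the highest of its Kc signals, GstE5 was called higher (log2 fold 1.09, adjusted p = 0.017). GstE4 varied widely within GSC, at 31.6, 206.8 and 196.4 in GSC against 128.6, 162.4 and 265.1 in Kc. GstE10 and GstE14 were in the control range, with means of 19 and 15.3 in GSC, against 57.1 and 13.3 in Kc. GstE14, also known as nobo, is required for ecdysteroid synthesis in the larval prothoracic gland.

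Class D held both the GST with the lowest fold and genes with little difference. GstD1, the member most often used as a readout of CncC activity, had 3652, 3392 and 3407 in GSC, against 25624, 23538 and 22692 in Kc. Its mean was 6.88 times as high in Kc, a log2 fold of -2.77 ± 0.0921 (SE, adjusted p = 4.76e-08), and it kept a strong signal in GSC. GstD3 had 204.8, 304.7 and 297.9 in GSC, against 9299, 10110 and 9448 in Kc, 35.7 times as high in Kc. Its log2 fold of -4.99 ± 0.145 (SE, adjusted p = 2.68e-08) was the 29th lowest of all 10844 genes. GstD7 had 15.3, 68 and 39.3 in GSC, against 1295, 1859 and 1760 in Kc (a log2 fold of -4.45 ± 0.266, SE, adjusted p = 1.49e-06). In these 3 genes the groups did not overlap, and the GSC signals of GstD7 were within the range of the controls without a target.

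GstD5 and GstD9 also fell. GstD5 had 83.3, 44 and 47.3 in GSC, against 365.1, 565.8 and 414.6 in Kc (a log2 fold of -2.34, adjusted p = 8.48e-05), and GstD9 had 607.5, 699.1 and 546 in GSC, against 1873, 1683 and 1841 in Kc (a log2 fold of -1.49, adjusted p = 1.45e-05). GstD6 and GstD8 lay just outside the fold minimum. GstD8 had 178.6, 92.6 and 89.6 in GSC, against 330.4, 216.1 and 227.4 in Kc (a log2 fold of -0.93, adjusted p = 0.0308), and GstD6 had 6, 18.9 and 19 in GSC, against 72.7, 88 and 41.1 in Kc (a log2 fold of -0.98, adjusted p = 0.0179). In both genes every GSC array was below every Kc array. Both were called lower with a pseudocount of 1 (log2 fold -2.21 for GstD6 and -1.14 for GstD8), with quantile normalization (-1.01 and -1.05) and with scaling to the median (-1.04 and -1.03). The fold of GstD6, which was in the control range on all arrays, was -0.37 with the pseudocount at the median of all values. Leaving out an array also moved them past the minimum in some cases, namely GSC 2 (log2 fold -1.05), GSC 3 (-1.05) or Kc 3 (-1.18) for GstD6 and GSC 1 (-1.18) or Kc 2 (-1.03) for GstD8.

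GstD2, GstD4, GstD10 and GstD11 were not called, and their groups overlapped. GstD2 had 244.1, 208.1 and 263.9 in GSC, against 241, 289.8 and 436.8 in Kc, and its 95% interval for the log2 fold ran from -0.87 to 0.17. GstD4 had 156.3, 163.1 and 170 in GSC, against 222.5, 233.3 and 117.2 in Kc, with an interval of -0.75 to 0.46. These intervals lie entirely above the log2 folds of GstD1, GstD3, GstD5, GstD7 and GstD9. GstD10 (means of 62.1 in GSC, against 112 in Kc) and GstD11 (55.3 in GSC, against 69 in Kc) were dim in both groups.

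Several genes that lie side by side had unlike folds, and others did not. In the RefSeq gene order the 11 class D genes form a run on chromosome arm 3R with 2 other annotated genes among them, and 10 of the class E genes form a run on arm 2R with 2 others among them. Along the class D run, GstD3 (-4.99) sits between GstD2 (-0.35) and GstD4 (-0.14), and GstD7 (-4.45) between GstD6 (-0.98) and GstD8 (-0.93). GstD6 and GstD7 were in the control range in GSC, so their folds follow the pseudocount. Along the class E run, GstE5 (0.84) stands beside GstE6 (-4.60), while GstE7 and GstE8 (both -2.72) had like folds. Genes of these runs are similar in sequence, and cross-reaction between their probe sets was not tested. The 33 members other than GstO2 are measured by probe sets of the plain type, and each of these has 1 probe set only.

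**Figure D3:**
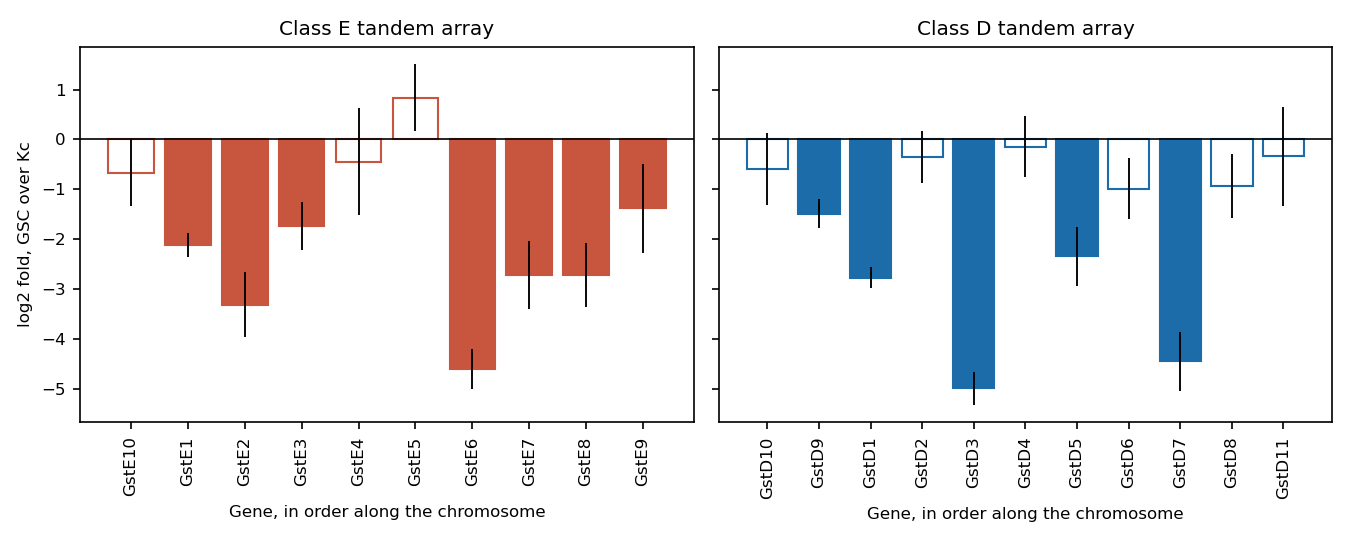
log2 fold, GSC over Kc, of the class E run (left) and the class D run (right) in the order of the genes along the chromosome, with bars filled for called genes and black lines for the 95% interval. The bars of GstD3 (-4.99) and GstD7 (-4.45) stand between short bars, and GstE5 (0.84) is the one bar above 0.

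Class O was split between its 3 members. GstO3 had 293.8, 364.4 and 405.1 in GSC, against 11841, 9028 and 9231 in Kc, a mean 28.3 times as high in Kc (a log2 fold of -4.68 ± 0.149, SE, adjusted p = 4.35e-08). GstO1 went the other way without reaching the fold minimum, at 605.4, 678 and 677 in GSC, against 245.4, 428.8 and 384 in Kc (a log2 fold of 0.85, adjusted p = 0.0078). Every GSC array of GstO1 was above every Kc array. GstO2 had 2663, 2749 and 2976 in GSC, against 2097, 2179 and 2710 in Kc on its brightest probe set, which is of a type whose probes can be shared between transcripts (log2 fold 0.27, adjusted p = 0.125). Its other probe sets disagreed, with a log2 fold of -0.13 (adjusted p = 0.697) for the plain one and 1.73 (adjusted p = 0.0143) for one made under relaxed probe rules, which passed both thresholds. These genes are neighbours on arm 3L together with se, an omega class gene outside the symbol rule that makes a precursor of the red eye pigments, which was dim at 33.2 ± 4.01 in GSC, against 15.7 ± 4.52 in Kc (SD, n = 3 each; not called).

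GstS1 was the only GST called higher in GSC. The sigma class enzyme is known for its abundance in flight muscle and its action on lipid peroxidation products. It had 3658, 4409 and 4237 in GSC, against 203.2, 182.7 and 256.7 in Kc, so that the mean was 19.1 times as high in GSC. The log2 fold was 4.04 ± 0.146 (SE, adjusted p = 8.46e-08), the 42nd highest of all genes. Of the 6 muscle sheath markers listed, Mhc was not analysed here and none of the other 5 was called. Every GSC array of Mlp84B was above every Kc array (means of 74.1 in GSC, against 23.6 in Kc). For Mlc2 every GSC array was below every Kc array (means of 206.4 in GSC, against 378.4 in Kc). The part of muscle cells in the GstS1 signal was not tested.

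No theta or zeta member reached a fold of 2. GstT3 had 479.7, 540 and 600.5 in GSC, against 727, 943.9 and 1003 in Kc (a log2 fold of -0.68, adjusted p = 0.0082), and GstT4 had 191.7, 218.7 and 145.7 in GSC, against 286.9, 364 and 290.2 in Kc (a log2 fold of -0.66, adjusted p = 0.0362). Both passed on p and stayed under the fold minimum, with every GSC array below every Kc array. GstT2 had means of 505.7 ± 47.8 in GSC, against 651.9 ± 100.5 in Kc (SD, n = 3 each), and the 95% interval of its log2 fold (-0.34), -0.69 to 0.02, leaves out a fold of 2 in either direction. Its sign turned with hybridisation control scaling (0.088). GstZ1 and GstZ2, whose class includes the maleylacetoacetate isomerase of tyrosine breakdown, were at 28.3 ± 7.6 and 52.7 ± 9.85 in GSC, against 23.3 ± 9.27 and 39.2 ± 42.3 in Kc (SD, n = 3 each), within the range of the controls without a target.

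The members correlated less between the groups than all probe sets did. Over the 34 genes, the correlation of log2(signal + 38) was 0.523 to 0.599 for pairs of a GSC with a Kc array, where it was 0.829 to 0.86 over all probe sets. Within a group it was 0.957 to 0.969 (GSC pairs) and 0.976 to 0.985 (Kc pairs) over the 34 genes. The points of each value share their arrays, and related genes are not independent.

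In the list of glutathione synthesis and supply, 4 genes of the methionine and cysteine metabolism that feeds the pathway fell in GSC, and of glutathione synthesis itself Gclc fell. Of 9 genes listed 7 were measured (the glutathione synthetase genes Gss1 and Gss2 were not analysed here), and of these 5 fell (71.4%, where 8.05% of all genes fell) and 1 rose (where 12.6% of all genes rose). Cth, which releases cysteine at the end of transsulfuration, had 1426 ± 102 in GSC, against 14955 ± 797 in Kc (SD, n = 3 each; on the log2 scale -3.36, adjusted p = 2.57e-08). Cbs, the enzyme before it, fell by 2.35 on the log2 scale, and Sam-S, which makes S-adenosylmethionine, by 2.60 (2774 ± 107 in GSC, against 17097 ± 1900 in Kc). Gclc, the catalytic subunit of the rate-limiting step of glutathione synthesis, had 203 ± 8.16 in GSC, against 626 ± 97.7 in Kc (-1.45), while its modifier Gclm was not called (-0.35, adjusted p = 0.0507). Ahcy fell by 1.09, under the fold minimum without Kc 1 (-0.96), with quantile normalization (-0.76) and with hybridisation control scaling (-0.64). Ggt-1, which breaks down glutathione outside the cell, rose (log2 fold 1.67, adjusted p = 0.00142), though its second probe set was not called (0.72).

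**Figure D4:**
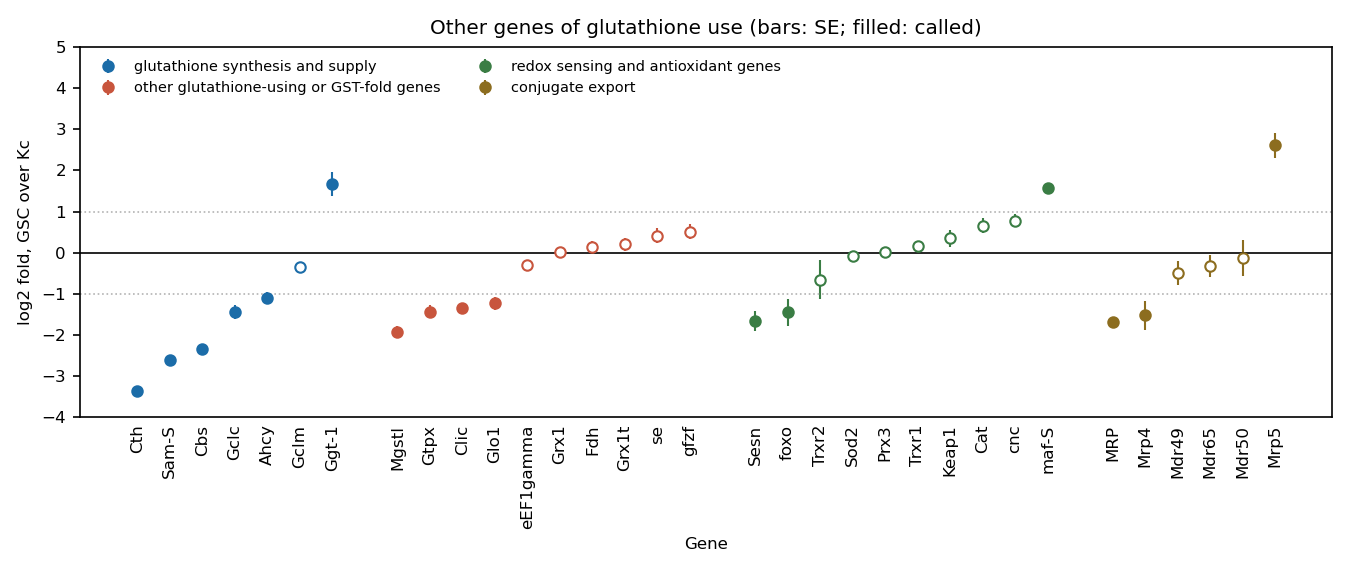
log2 fold, GSC over Kc, on the log2(signal + 38) scale with the SE for the 33 measured genes of 4 other lists, coloured by list and filled where called. In glutathione synthesis and supply, 5 of 7 points are filled below -1, down to Cth at -3.36, while the redox list is spread around 0.

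The list drawn up for other glutathione-using or GST-fold genes was mixed, with 4 of 10 measured (11 listed) lower and 0 higher. Over all genes 8.05% fell and 12.6% rose. Use of glutathione by each listed gene was not tested. Mgstl, a membrane GST unrelated in sequence to the classes above, had 3074 ± 295 in GSC, against 11949 ± 2798 in Kc (a log2 fold of -1.93, adjusted p = 1.07e-05), and its other 2 probe sets were called in the same direction. The peroxidase gene Gtpx (-1.43), Clic (-1.34) and the glyoxalase gene Glo1 (-1.23) also fell, and these 3 were under the fold minimum when arrays were scaled to the hybridisation controls (-0.98, -0.90 and -0.78). Grx1 had 672.8 ± 16.7 in GSC, against 671.7 ± 61.5 in Kc (SD, n = 3 each; on the log2 scale 0.01).

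Redox sensing and antioxidant genes were mostly not called, with 1 of 10 measured (14 listed) higher and 2 lower, where 12.6% of all genes rose and 8.05% fell. The small Maf gene maf-S, whose product pairs with Cnc proteins, had 2094 ± 72 in GSC, against 682 ± 62.7 in Kc (SD, n = 3 each; on the log2 scale 1.57, adjusted p = 5.32e-06). On its brightest probe set cnc had 1391 ± 208 in GSC, against 796 ± 124 in Kc (a log2 fold of 0.78, adjusted p = 0.00344), under the fold minimum but past it with hybridisation control scaling (1.21), and another of its 4 probe sets had -0.95 (adjusted p = 0.00221). Keap1 was not called (0.35, adjusted p = 0.234), nor were Sod2 (-0.09) and Trxr1 (0.17). Cat (0.66, adjusted p = 0.0157) stayed under the fold minimum, although every GSC array was above every Kc array. Sesn (-1.65) and foxo (-1.45) fell.

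Of 6 genes listed for the export of conjugates, MRP (1414 ± 167 in GSC, against 4651 ± 613 in Kc, log2 fold -1.69) and Mrp4 (-1.52) fell and Mrp5 rose (414 ± 23.6 in GSC, against 40 ± 29.5 in Kc, log2 fold 2.61), beside the same 8.05% lower and 12.6% higher over all genes. Mdr49 (-0.49), Mdr50 (-0.13) and Mdr65 (-0.33) were not called. Export of conjugates by each listed gene was not tested. UDP-glycosyltransferases, which attach sugars to foreign compounds, had 4 of 33 lower (12.1%) and 1 higher, a share lower that is near the 8.05% of all genes. Ugt49B1 (-4.03), Ugt37D1 (-3.45), Ugt49C1 (-3.07) and Ugt302C1 (-1.31) fell, Ugt305A1 rose (2.20) though its second probe set was not called (1.07, adjusted p = 0.108), and 18 of the 33 stayed within the range of the controls without a target on all arrays. Mrp4, Ugt37D1 and Ugt49C1 were within that range on all GSC arrays, and Mrp5, Ugt305A1 and Ggt-1 on all Kc arrays. The size of their folds therefore depends on the pseudocount. The call of Ugt302C1 was lost without GSC 1, where its log2 fold was -0.94, without Kc 2 (adjusted p = 0.0661) or Kc 3 (adjusted p = 0.079), with a floor in place of the pseudocount (adjusted p = 0.0547) and with hybridisation control scaling (adjusted p = 0.0559). With the pseudocount at the median of all values, Ggt-1 (0.99), Sesn (-0.96), foxo (-0.87), Mrp4 (-0.72) and Ugt302C1 (-0.70) were under the fold minimum, and foxo was also not called with a floor in place of the pseudocount (adjusted p = 0.051).

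Scaling affected the balance of calls. With arrays scaled to their hybridisation controls, 15 GSTs fell and 3 rose, where GstE5 (log2 fold 1.20) and GstO1 (1.27) joined GstS1, against 15 and 1 as deposited. Over all genes it gave 529 lower and 2351 higher, against 873 and 1368 as deposited, so that 81.6% of the calls were higher, against 61.0% as deposited. That scaling moved the median log2 fold of all genes to 0.34 and that of the 34 GSTs to -0.50. In these bulk samples fewer cells of a type and less RNA per cell cannot be told apart.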

How the data were processed

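Each probe set has 1 deposited intensity per array, linear in scale, made by the authors with MAS5 per the submitters' processing notes, with version and settings not given in the sources used here. Their mean after trimming 2% at each end was 500 on all 6 arrays, so no second normalization was applied. The table held 14010 probe sets and 0 columns without a sample. The 44 array controls were left out, leaving 13966, of which 12443 had 1 symbol, 327 several and 1196 none.

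Signals were transformed as log2(signal + 38), 38 being the 25th percentile of all values, which understates folds of dim genes. The GSC against Kc contrast was fitted in limma 3.58.1 (R 4.3.3; lmFit, then eBayes with intensity trend and robust estimation, two-sided), with Benjamini-Hochberg adjustment over all probe sets, and the script was tested on simulated data. Exact permutation tests used SciPy 1.17.1. Gene symbols and order came from the RefSeq table of Release 6 plus ISO1 MT. All members are described, and of the other lists each called gene is named. Gclm, Grx1, cnc, Keap1, Sod2, Cat, Trxr1, se, Mdr49, Mdr50, Mdr65, bgcn, NimC1, Lsp2, Fbp1, Fbp2, apolpp, Mlc2 and Mlp84B were named after their values were seen. The members and lists were chosen with earlier results of these data known. The setting of signals beside mouse and yeast controls and the comparison of neighbouring genes were chosen after the data were seen. Protein and promoter sequences were not used here. The number of arrays limits the precision. Alternatives covered the pseudocount, a floor, normalization, the variance prior, leaving out dim probe sets, a block for the replicate number, each array left out, the fold minimum and the probe set rule.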

Additional observations from a re-analysis of the deposited data

How the results depend on the processing

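Over 19 alternatives the number of GSTs lower in GSC stayed between 14 and 19 (15 as reported), that of class D between 5 and 7 (5) and that of class E between 8 and 9 (9). The upper value of 19 GSTs came only with the looser fold minimums. Leaving out each array in turn gave 14 to 16, 5 to 6 and 8 to 9. Of the 16 called GSTs, 15 kept their call and direction in every alternative, and GstE9 lost its call in 6, with the pseudocount at the median (log2 fold -0.68), with a floor in place of the pseudocount (adjusted p = 0.0679) and without each of 4 arrays. The looser fold minimums could not remove a call. Nor could choosing the probe set by mean log2 value, since each called GST has 1 probe set. The number higher in GSC was 1, and it was 3 with scaling to the hybridisation controls, 2 with a fold minimum of 1.5, 3 with no fold minimum, and 1 to 2 when an array was left out. The replicate block gave 15 lower and 1 higher and changed no GST call, and the same-numbered arrays did not deviate together (correlations of -0.030, 0.036 and -0.0070). Folds near 0 changed sign for GstD11 without GSC 2 (0.069, in a range of -0.80 to 0.069 over the arrays left out), GstE4 without GSC 1 (0.15, in a range of -0.76 to 0.15), and, with hybridisation control scaling, GstD2 (0.046), GstD4 (0.23) and GstT2 (0.088), none of them called. Among the 66 measured genes of the 5 other lists, 33 of them UDP-glycosyltransferases, 17 fell (12 to 18 over the alternatives, 16 to 17 without an array) and 4 rose, or 7 with hybridisation control scaling (4 to 5 without an array), where 8.05% of all genes fell and 12.6% rose. The size of folds of genes dim in GSC followed the pseudocount: GstE2 had -4.78 with a pseudocount of 1 and -1.96 with one at the median of all values, GstE7 -4.12 and -1.49, and GstD7 -5.50 and -3.14, called in each case. Dim signals have no stated background, which limits what their folds can show.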
